A study of Mus musculus with 8 samples.

Results

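Ces1d and 9 further genes that break down, coat or build stored triglyceride were followed in the hearts of mice that lack Lrpprc in muscle. The 10 genes, of 50599 records in each library, were Ces1d, Pnpla2, Lipe, Mgll, G0s2, Plin2, Plin4, Plin5, Dgat1 and Dgat2. They were chosen by their place in lipid storage and by their expected counts in the knockout against the wildtype, seen in these same libraries. Their differences are therefore given as a description without a test of their own, and calls of members stand only beside the share of all genes. All 10 were detected in all 8 libraries. The study compared 4 hearts of wildtype mice with 4 hearts of Lrpprc knockout mice, all C57BL/6N males of 12 weeks on normal chow, with 1 heart per library. Both genotypes carried loxP sites on each Lrpprc allele (Lrpprc loxP/loxP), and the knockout mice also carried a Cre transgene active in heart and skeletal muscle (Lrpprc loxP/loxP, Cre+). The promoter that drives Cre is not given in the sources used here, the effect of Cre itself cannot be told apart from that of the deletion, and cells of the heart other than muscle keep the gene. Total RNA of the whole heart was depleted of cytoplasmic rRNA and sequenced.

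A triglyceride is stored in a lipid droplet and released one fatty acid at a time. Adipose triglyceride lipase, encoded by Pnpla2, starts the sequence and is held back by the small protein G0s2, hormone-sensitive lipase, encoded by Lipe, takes the second step, and monoglyceride lipase, encoded by Mgll, the last. Perilipins coat the droplet and control access to it, and diacylglycerol acyltransferases, encoded by Dgat1 and Dgat2, close the synthesis of triglyceride. Ces1d encodes a carboxylesterase of the endoplasmic reticulum that hydrolyses triglyceride and other esters and is best known from liver and adipocytes. In heart muscle, fatty acids from droplets are both a fuel for mitochondria and a source of ligands for the nuclear receptors of the PPAR family.

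Totals lay between 35218541 and 47743376 expected counts per library, of which mitochondrial rRNA took 44.0 to 46.9% in the wildtype and 65.6 to 67.8% in the knockout. A normalised count here is the expected count divided by a size factor of the library and a factor for the effective length of the gene, which is the length over which a read could start. The targeted gene, Lrpprc, lay between 3424 and 3946 normalised counts in the wildtype and between 504.3 and 605.4 in the knockout, so that every library matched its label. Defining genes of heart muscle were abundant in every library, Myh6 for example at 242062 to 599565 normalised counts. The summed markers of heart muscle were lower in each knockout library than in any wildtype library, and 8 of 10 passed the test downwards. The 2 knockout libraries that stood apart in the genes described below were replicate 3 and replicate 1. The summed atrial markers (Myl4, Myl7, Sln and Bmp10) were at 9980 to 12038 normalised counts in the wildtype and at 1268 to 6012 in the knockout, without overlap, and 2 of the 4 passed the test downwards. The lowest of these sums, 1268, was that of knockout replicate 3. The part of atrial tissue in the difference of Ces1d and the other genes was not tested. In RNA of a whole heart, fewer cells of a type and less RNA per cell cannot be told apart.

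The Ces1 genes lie side by side on chromosome 8 and resemble each other, so the sequence shows how well reads of Ces1d can be told from those of its relatives. Ces1d (ENSMUSG00000056973.6) occupies chr8:93166068-93197838 (GRCm38, minus strand) and is a protein-coding gene. The stretch below, bases 628 to 696 of its coding sequence, holds the codons around the catalytic serine. The same stretch of 4 relatives is shown with capitals at every base that differs from Ces1d, 5′ to 3′.
Ces1d: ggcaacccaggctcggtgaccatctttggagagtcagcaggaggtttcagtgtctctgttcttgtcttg
Ces1e: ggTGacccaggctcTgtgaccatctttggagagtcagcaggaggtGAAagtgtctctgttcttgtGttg
Ces1f: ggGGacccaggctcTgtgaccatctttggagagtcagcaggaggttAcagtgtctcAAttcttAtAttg
Ces1g: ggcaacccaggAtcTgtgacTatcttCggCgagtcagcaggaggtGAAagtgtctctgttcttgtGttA
Ces1a: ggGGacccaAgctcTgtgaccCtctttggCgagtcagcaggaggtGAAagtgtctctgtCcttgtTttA
The relatives differed from Ces1d at 7 to 12 of the 69 bases, which leaves 82.6 to 89.9% identity even here. Over all annotated transcripts, 25 of the 2316 distinct 50-base words of Ces1d (1.08%) also occurred in another gene, most often in Ces1b. Among the other members only Plin2 shared words, 2.57% of them, all with the gene model Gm12551, which had at most 2 expected counts in any library.

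Ces1d was the member with the widest difference. The 4 wildtype hearts had 2056, 2089, 1336 and 1736 normalised counts, and the 4 knockout hearts had 151.3, 27.23, 29.43 and 23.09, in the order of their replicate numbers as in all sentences that follow. Every knockout library lay far below every wildtype library, and knockout replicate 1 lay above the other 3 knockout libraries. On the log2 scale the knockout differed from the wildtype by -4.97 (standard error, SE, 0.668), which is 31.3-fold lower. Without knockout replicate 1 the difference was -6.09. The knockout values rested on few reads, 138, 24, 26 and 25 expected counts, against 1535 to 2171 in the wildtype. The effective length of Ces1d was 1723 to 1816 bases in the wildtype and 1836 to 1840 in the knockout and did not overlap between the groups. Without the correction for length the log2 fold change was -4.91.

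No relative approached the level of Ces1d. Ces1e reached at most 15.7 normalised counts in a wildtype library and 4.32 in a knockout library, and its fold change of -2.04 on the log2 scale (SE 1.03) did not pass the test (DESeq2, adjusted p = 0.118). Ces1a reached at most 3.51 in the wildtype and 11.7 in the knockout, a fold change of 2.12 on the log2 scale that did not pass either (SE 1.54, DESeq2 adjusted p = 0.307). Ces1f stayed at or below 2.75 normalised counts, Ces1b and Ces1c had at most 1 expected count in any library, and Ces1g and Ces1h had 0 in all 8. The gene model Gm45909, which lies within Ces1d on the same strand, had 8 to 18 expected counts in the wildtype and 0, 5, 0 and 0 in the knockout.

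Adipocytes also express Ces1d, so the adipocyte markers are given beside it. Of 11 markers 10 had an adjusted p, and 1 passed the test, Adig, an adipogenesis gene that rose. Their summed level came to 151.5, 249.2, 498.9 and 471.6 normalised counts in the wildtype and to 569.9, 130.2, 92.33 and 310.1 in the knockout. The groups overlapped, and knockout replicate 1, which had the most Ces1d among the knockout libraries, also had the highest sum. In the wildtype the order differed, since replicate 1 had the lowest sum and nearly the most Ces1d. Adipoq, the adiponectin gene that defines fat cells, was at 5.63 to 35.1 normalised counts in the wildtype and 2.86 to 31.3 in the knockout. Plin1, the perilipin of fat cells, was at 12.1 to 33.3 and at 0 to 32.8. Of the 4 brown fat markers 3 were tested, of which Cidea was higher and Cox7a1, also a gene of heart muscle, lower. Ucp1, which defines brown fat, did not pass and was at 8.03 to 54.7 in the wildtype, at 36.9 in knockout replicate 1 and at 0 in the other 3 knockout libraries. Elovl3 was at or below 3.35 in every library. Hepatocyte markers summed to at most 80.5 normalised counts in any library, and 2 of the 7 were at 0 throughout. Of the 7, 3 were tested and 1 was higher, Ttr, at 0 to 2.6 in the wildtype and 2.24 to 13.9 in the knockout. The part of fat in the Ces1d values was not tested.

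**Figure D1:**
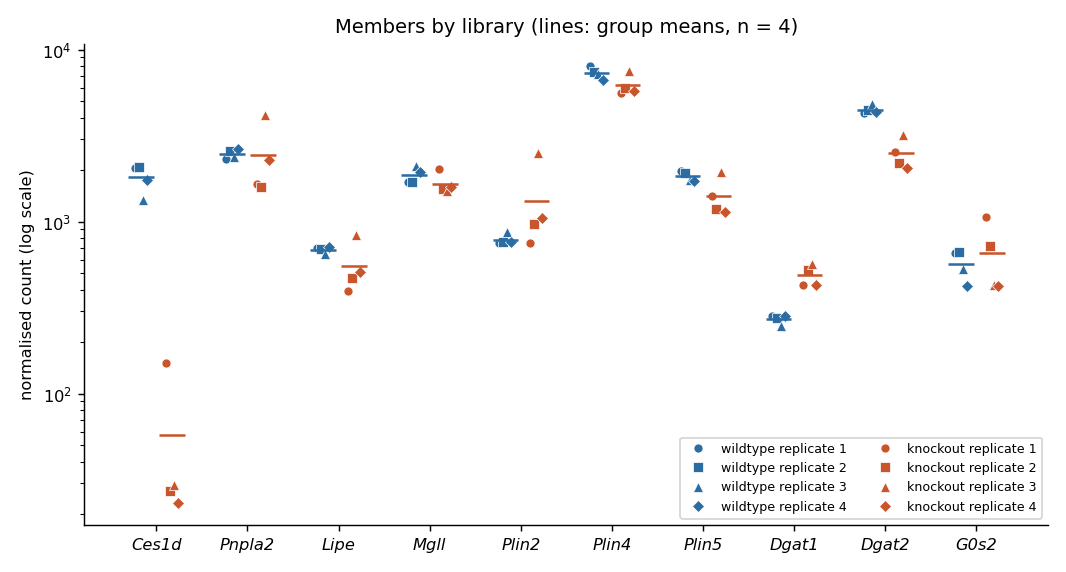
Normalised counts (log scale) of the 10 genes, with 1 point per library; blue is wildtype, red is knockout, the marker gives the replicate number and lines are group means (n = 4). Ces1d lies between 1336 and 2089 in the wildtype and between 23.1 and 151 in the knockout, while Pnpla2, Lipe and Plin2 are set apart mainly in knockout replicate 3 (triangles).

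Pnpla2, the lipase that starts the breakdown of stored triglyceride (chr7:141455198-141460743, plus strand), had nearly the same mean in both groups. Its normalised counts were 2325, 2574, 2364 and 2634 in the wildtype and 1657, 1597, 4170 and 2294 in the knockout. Knockout replicate 3 lay above all wildtype libraries and the other 3 knockout libraries lay below them, so the groups overlapped through a single library. The groups differed by -0.03 on the log2 scale (SE 0.265), and by -0.42 without knockout replicate 3. Between libraries the coefficient of variation was 6.17% in the wildtype and 49.5% in the knockout.

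Lipe, the hormone-sensitive lipase that acts on diglyceride (chr7:25379527-25398710, minus strand), also had its highest value in knockout replicate 3. It had 700.6, 691.4, 648.5 and 707.5 normalised counts in the wildtype and 393.2, 468.6, 840.1 and 509 in the knockout. Knockout replicate 3 was again the only knockout library above the wildtype, and the other 3 were below it. This gave a log2 fold change of -0.31 (SE 0.214), or of -0.59 without knockout replicate 3. The antisense gene 4732471J01Rik over Lipe had at most 15 expected counts in any library.

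Mgll, which releases the last fatty acid (chr6:88724412-88828360, plus strand), differed little. Wildtype hearts held 1697, 1701, 2110 and 1947 normalised counts of it, and knockout hearts 2023, 1541, 1501 and 1578. The groups overlapped through knockout replicate 1, which lay among the wildtype libraries, while the other 3 knockout libraries were below them. The difference was -0.17 on the log2 scale (SE 0.134). The gene models Gm44005, Gm43999 and Gm44001 lie on the same strand within Mgll and had up to 166, 95 and 90 expected counts in a library, against 1284 to 2331 for Mgll, so some reads may be divided between them. In Mgll knockout replicate 3 was the lowest library, in contrast to Pnpla2 and Lipe.

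G0s2, the inhibitor of the lipase encoded by Pnpla2 (chr1:193272161-193273217, minus strand), had the largest coefficient of variation of the 10 members in the wildtype, 20.2%. Its counts were 652, 666.5, 526.8 and 423.5 in the wildtype and 1057, 723, 427.1 and 419.2 in the knockout. Knockout replicates 1 and 2 were above the wildtype range, replicate 3 lay within it and replicate 4 just below it. The groups differed by 0.21 on the log2 scale (SE 0.286), and by -0.12 without knockout replicate 1.

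Plin2, a perilipin found on droplets of most cells (chr4:86648386-86670060, minus strand), had its high value in knockout replicate 3. Wildtype hearts held 745.4, 765, 865.3 and 758.4 normalised counts of it, and knockout hearts 751.5, 971.4, 2494 and 1042. Knockout replicates 2, 3 and 4 were above all wildtype libraries, and replicate 1 lay within the wildtype range. This gave a log2 fold change of 0.75 (SE 0.307). Without knockout replicate 3 it was 0.23.

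Plin5, the perilipin of oxidative tissues that links droplets to mitochondria (chr17:56111601-56117596, minus strand), was low in 3 knockout libraries. It had 1974, 1909, 1749 and 1712 normalised counts in the wildtype and 1413, 1177, 1936 and 1140 in the knockout. Knockout replicate 3 lay within the wildtype range, and the other 3 libraries below it. The difference was -0.37 on the log2 scale (SE 0.172), and -0.56 without knockout replicate 3.

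Plin4, a perilipin of muscle and fat (chr17:56100591-56109803, minus strand), lies 1797 bases from Plin5 on the same strand. Its normalised counts were 8039, 7412, 7213 and 6665 in the wildtype and 5581, 5944, 7488 and 5719 in the knockout. As for Plin5, only knockout replicate 3 reached the wildtype range. The difference of -0.25 on the log2 scale (SE 0.122) became -0.35 without that library. Plin4 overlaps Hdgfl2 on the opposite strand. Reads were counted by strand.

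Dgat1, an acyltransferase that makes triglyceride in the endoplasmic reticulum (chr15:76502015-76511953, minus strand), was higher in every knockout library. Its normalised counts were 281.8, 275.9, 247.6 and 281 in the wildtype and 426.6, 520.1, 565.7 and 430.4 in the knockout, with no overlap. The knockout mean was 1.79-fold higher, a log2 fold change of 0.84 (SE 0.139). Its effective length was 1194 to 1343 bases in the wildtype and 1404 to 1618 in the knockout, again without overlap. Among 10451 genes with a mean of at least 100 expected counts, the effective length was above the wildtype in all 4 knockout libraries in 3.55% and below it in all 4 in 4.35%. The effective length is an average over isoforms weighted by their abundance, and its part in the Dgat1 difference was measured by leaving it out, which gave a log2 fold change of 1.11.

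Dgat2, the other acyltransferase, unrelated in sequence (chr7:99153658-99182719, minus strand), was lower in every knockout library. Wildtype hearts held 4288, 4431, 4829 and 4312 normalised counts of it, and knockout hearts 2533, 2202, 3174 and 2039. The groups did not overlap, and knockout replicate 3 was the nearest to the wildtype. The knockout was 1.8-fold lower, a log2 fold change of -0.84 (SE 0.146). The 2 enzymes that catalyse the same last step thus differed in opposite directions.

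In the fit over all genes (DESeq2, adjusted p under 0.05), 33.7% of the 19959 genes tested were called, 18.2% as higher and 15.5% as lower in the knockout. Of the 10 members, 2 were called higher (Plin2 and Dgat1) and 2 lower (Ces1d and Dgat2), a count that stands beside this background only, because the members were chosen with this contrast known. With edgeR, which called 39.7% of 15792 genes, Plin2 was not called, and it lost its call in 7 of 16 alternatives in all, among them the fits without each wildtype library. Ces1d, Dgat1 and Dgat2 were called in all 16, which refit the same libraries by which the members were chosen and so add no support. With total counts as the size factor, 1 member was higher (Dgat1) and 6 lower (Ces1d, Lipe, Mgll, Plin4, Plin5 and Dgat2), beside 9.64 and 29.6% of all genes. With total counts that leave out mitochondrial rRNA, 2 were higher and 2 lower, beside 38.9 and 5.43%. Without knockout replicate 3, a fit that called 36.6% of 19200 genes, 7 members were called, 1 higher (Dgat1) and 6 lower (Ces1d, Pnpla2, Lipe, Plin4, Plin5 and Dgat2), beside 19.4 and 17.2% of all genes. All 4 knockout libraries lay above all 4 wildtype libraries in 1 member and below them in 2, beside 16.7% and 16.4% of all genes tested. The median log2 fold change was -0.21 over the members and 0.005 over all genes tested.

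The scaling moved all genes, and with them the smaller differences. With total counts as the size factor the median of all genes tested moved to -0.30, and with total counts that leave out mitochondrial rRNA to 0.43. Under the last scaling Pnpla2, Lipe, Mgll, Plin4 and Plin5 had log2 fold changes of 0.38, 0.09, 0.26, 0.17 and 0.04, opposite in sign to the values above. Measured from the median of all genes they were at -0.06, -0.34, -0.17, -0.26 and -0.4. Under the size factors used, these distances were -0.03, -0.32, -0.17, -0.25 and -0.38. Under total counts G0s2 turned to -0.09, which was 0.2 above the median, against 0.21 under the size factors used. Ces1d, Plin2, Dgat1 and Dgat2 kept their sign under both.

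**Figure D2:**
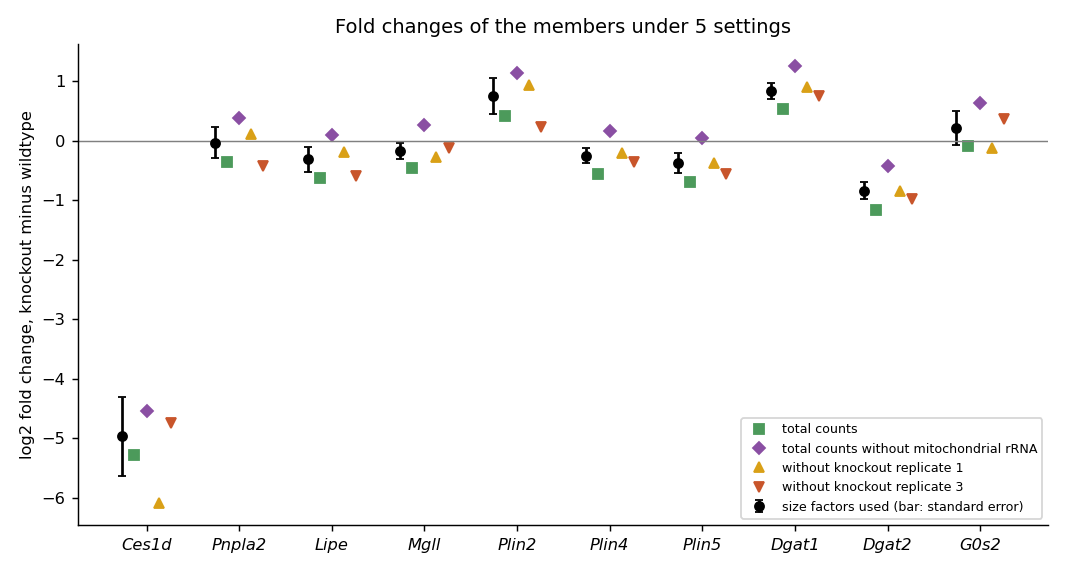
Log2 fold change of each member, knockout minus wildtype, under the size factors used (black, with its standard error), under 2 other scalings and without knockout replicate 1 or 3. Ces1d stays at or below -4.54 and Dgat2 below 0 in the 5 settings shown, Dgat1 and Plin2 stay above 0, and the other 6 members lie on both sides of 0.

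Levels per length were compared within each group in TPM, the abundance per length that RSEM scales to a fixed total. In the wildtype heart Dgat2 was the highest member, with 59.1 ± 3.64 TPM (SD, n = 4), followed by Pnpla2 at 43.8 ± 2.16 and Plin4 at 36.3 ± 3.44, with ranges that did not overlap between neighbours. Plin5 (27.9 ± 2.36), Ces1d (27.6 ± 5.59), G0s2 (22.3 ± 4.82), Plin2 (19.4 ± 1.43) and Mgll (16.9 ± 1.71) came next, each with a range that overlapped that of its neighbour. Lipe (7.76 ± 0.297) and Dgat1 (5.44 ± 0.327) were apart from these and from each other. Ces1d thus stood near Plin5 in the middle of the order in the wildtype, above the lipases Mgll and Lipe.

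In the knockout heart Ces1d was the lowest member, at 2.03, 0.39, 0.38 and 0.35 TPM in replicates 1 to 4. Pnpla2 (38.7 ± 17.1 TPM), Dgat2 (29.7 ± 3.95), Plin2 (29.1 ± 15.8), Plin4 (27.7 ± 2.87), G0s2 (23.3 ± 10.2) and Plin5 (19.4 ± 3.7) headed the order, and no neighbours among these 6 were separated beyond their ranges. Mgll followed at 13.8 ± 1.92, Dgat1 at 8.85 ± 1.06 and Lipe at 5.64 ± 1.74 TPM. Dgat1 was the lowest member in the wildtype and stood above Lipe in the knockout, though those 2 ranges overlapped. TPM values of nuclear genes share a fixed total with the mitochondrial rRNA, so they were compared between genes of a library and not between groups.

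Ratios between members within a library do not depend on that total. Dgat2 to Dgat1 was 10.1, 10.6, 12.9 and 10.1 in the wildtype and 3.92, 2.8, 3.71 and 3.13 in the knockout, with no overlap. Plin2 to Plin5 was 0.617, 0.655, 0.808 and 0.723 in the wildtype and 0.868, 1.35, 2.1 and 1.49 in the knockout, also without overlap. Plin2, the coat protein of most cells, was therefore below Plin5 in every wildtype library and above it in 3 of 4 knockout libraries. Both ratios combine members whose values are described above and carry no independent evidence.

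Pnpla2 to G0s2, the lipase over its inhibitor, did not separate the genotypes. It was 1.62, 1.75, 2.03 and 2.82 in the wildtype and 0.71, 1, 4.42 and 2.48 in the knockout. Knockout replicates 1 and 2 lay below every wildtype library and replicate 3 above every one. Lipe to Pnpla2 was 0.171 to 0.192 in the wildtype and 0.128 to 0.187 in the knockout.

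Of the summed TPM of the 4 enzymes Ces1d, Pnpla2, Lipe and Mgll, Ces1d made up 28.6% ± 4.52 (SD, n = 4) in the wildtype and 4.25, 0.862, 0.463 and 0.58% in knockout replicates 1 to 4. The share of Pnpla2 was 42.9 to 47.2% in the wildtype and 53.9 to 75.8% in the knockout. With Ces1d left out of the sum it was 61.3 to 66.2% and 56.3 to 76.2%, which overlapped, so the first difference came with the loss of Ces1d from the sum. With mitochondrial records left out of the total, the sum itself was 154 to 174.2 TPM in the wildtype and 105 to 196.5 in the knockout and overlapped.

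**Figure D3:**
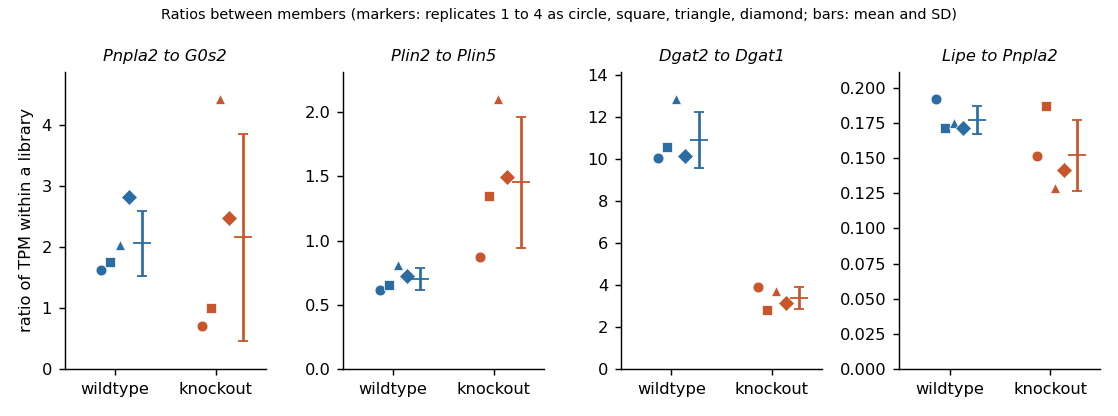
Ratios of TPM between 2 members within each library, from left to right Pnpla2 to G0s2, Plin2 to Plin5, Dgat2 to Dgat1 and Lipe to Pnpla2; points are libraries, bars are mean and SD (n = 4). Only Plin2 to Plin5 and Dgat2 to Dgat1 separate wildtype (blue) from knockout (red), while Pnpla2 to G0s2 spans 0.71 to 4.42 in the knockout.

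Knockout replicate 3 was the highest of the knockout libraries in 7 of 10 members, the exceptions being Ces1d, Mgll and G0s2, and in 33.8% of all genes tested. Among 21 tested genes of a list of PPAR regulators and targets it was the highest in 18. In this library the summed adipocyte (92.33 normalised counts), atrial (1268) and endothelial markers (12342) were the lowest of the 8 libraries. The fibroblast (15568) and macrophage markers (4818) were the lowest of the knockout libraries, and the erythroid markers (53861) the highest of the 8. Whether the tissue taken has a part in the high values of Pnpla2, Lipe and Plin2 in this library was not tested.

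The genes with the profile nearest to that of a member were found among 9806 protein-coding genes, by the root mean square difference over the 8 libraries of log2 normalised counts centred on the wildtype mean. For Ces1d these were Lingo3 (0.978), Itgb6 (1.07), Sbk2 (1.11), Efnb3 (1.22) and Ky (1.23). All 5 were lower in each knockout library than in any wildtype library, and in Lingo3, Itgb6, Sbk2 and Ky knockout replicate 1 was the highest of the knockout libraries, as in Ces1d. They were chosen by likeness over these same 8 libraries, so a shared pattern follows from the choice. The mean of at least 100 normalised counts asked of them was reached mainly through the wildtype. Itgb6, an integrin subunit, was at 709.6 to 1243 normalised counts in the wildtype and at 293.8, 46.04, 15.49 and 39.16 in the knockout. Ky, a muscle protein gene, was at 276.1 to 349.6 and at 103.7, 21.41, 4.41 and 12.23. The nearest genes to Pnpla2 and G0s2 lay closer to them than Lingo3 to Ces1d.

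Pnpla2 was nearest to Itpk1 (0.0783), Rab11b (0.119) and Cd36 (0.146). Cd36, which takes up fatty acids into muscle cells, was at 23896 to 25695 normalised counts in the wildtype and at 19601, 18221, 39021 and 20564 in the knockout. As in Pnpla2, replicate 3 was above the wildtype range and the other 3 libraries below it. G0s2 was nearest to Lhpp (0.232), Frmd5 (0.233) and Gtf2h4 (0.244), whose values were above the wildtype range in knockout replicates 1 and 2. For Pnpla2 and G0s2 too, the shared pattern follows from the choice by likeness.

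RefSeq promoter windows (GRCm38.p6, 250 bases before to 50 after a start) were at hand for 7 of the 10 members, in 10 windows, and not for Ces1d, Dgat1 or Dgat2. PPAR receptors bind repeats of AGGTCA, and 3 of the 10 windows held at least 1 copy on either strand (1 of Plin2 and 2 of Plin5), beside 16.3% of all 32851 windows. The windows of Plin2 and Plin5 are printed as those in which AGGTCA was found, with AGGTCA or its reverse complement TGACCT in capitals, 5′ to 3′ on the strand of the gene. That of Plin2 covers chr4:86670010-86670309 and that of Plin5 chr17:56117499-56117798, both on the minus strand.
Plin2: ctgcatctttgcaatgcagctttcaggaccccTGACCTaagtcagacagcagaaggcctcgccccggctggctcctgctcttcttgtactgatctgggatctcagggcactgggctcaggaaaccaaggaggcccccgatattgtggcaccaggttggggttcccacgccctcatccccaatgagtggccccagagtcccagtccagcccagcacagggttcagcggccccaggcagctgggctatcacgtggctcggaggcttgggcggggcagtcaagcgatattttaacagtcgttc
Plin5: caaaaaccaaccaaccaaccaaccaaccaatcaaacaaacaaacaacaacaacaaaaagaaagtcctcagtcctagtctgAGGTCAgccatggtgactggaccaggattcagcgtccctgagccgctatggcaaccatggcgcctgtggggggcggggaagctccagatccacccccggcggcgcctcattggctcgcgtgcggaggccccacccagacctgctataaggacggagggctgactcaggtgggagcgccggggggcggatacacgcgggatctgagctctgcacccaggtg
The copy begins 218 bases before the start in Plin2 and 170 before it in Plin5, and the other Plin5 window, at a later start, holds its copy 13 bases after that start. The E-box CACGTG was in 3 of the 10 windows (Plin2, Mgll and Lipe), beside 7.15% of all windows. The core of the cAMP element, TGACG, searched on both strands, was in 2 (G0s2 and Mgll), beside 20.8%. The core of the ATF4 element, TGATGCAA, was in 0, beside 0.895%. A match is a run of letters and not a bound site.

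The rest of the pathway was taken from 3 lists of 88 further genes, of which 72 were tested. In the knockout 22 of the 72 (30.6%) were higher and 13 (18.1%) lower at an adjusted p under 0.05, beside 18.2 and 15.5% of all genes tested. The threshold did not hold its nominal rate for DESeq2 on simulated data, where 18.3% of its calls were unchanged genes, against 4.73% with edgeR. That simulation changed only 100 genes by 1 and 100 by 2 on the log2 scale, with the spread estimated by edgeR. The share of unchanged genes among calls depends on how many genes change, so it does not carry over to the lists. With edgeR 21 of 68 pathway genes were higher and 13 lower (30.9 and 19.1%), beside 20.1 and 19.6% of all genes in that fit. With total counts as the size factor the split was 12 higher and 24 lower (16.7 and 33.3%), beside 9.64 and 29.6% of all genes. With total counts without mitochondrial rRNA it was 43 and 6 (58.9 and 8.22%), beside 38.9 and 5.43%. The balance of the directions moved with the scaling, as it did over all genes, and the share higher stayed above that of all genes. Markers of other cells moved with genotype too, besides the atrial markers given above. The summed fibroblast markers were at 12923 to 13500 normalised counts in the wildtype and at 15568 to 34771 in the knockout, with 3 of 7 genes called higher, and 6 of 8 macrophage markers were called higher, with sums of 4445 to 6037 and 4818 to 11554 that overlapped. The summed endothelial markers were at 16906 to 18438 and at 12342 to 20663 and overlapped. The part of these cells in the counts of the lists was not tested.

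Among 39 lipases and their cofactors 28 were tested, of which 9 were higher and 5 lower (32.1 and 17.9%). Over all genes tested the shares were 18.2 and 15.5%. The median log2 fold change was 0.24. Abhd6, which hydrolyses monoglyceride beside Mgll, rose by 2.31 on the log2 scale (SE 0.398, DESeq2 adjusted p = 8.46e-08), from 46.8 to 59.8 normalised counts in the wildtype to 92.7, 209.4, 509.4 and 255.2 in the knockout. The carboxylesterase gene Ces2g rose by 1.13 on the log2 scale (SE 0.303, DESeq2 adjusted p = 0.00104), from between 19.5 and 37.9 to between 56.1 and 90.1 normalised counts. Gpihbp1, which anchors lipoprotein lipase to capillaries, rose by 0.86 (SE 0.177, DESeq2 adjusted p = 1.1e-05). Abhd5, the protein that activates the lipase of Pnpla2 and is named here for that role after its values were seen, was at 754.3 to 869 normalised counts in the wildtype and at 999.5 to 1334 in the knockout, a rise of 0.5 (SE 0.12, DESeq2 adjusted p = 0.000199).

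Of those that fell, Lpl, lipoprotein lipase, which frees fatty acids from lipoproteins, was at 51957 to 59140 normalised counts in the wildtype and at 15135, 21284, 42789 and 22712 in the knockout, -1.14 on the log2 scale (SE 0.256, DESeq2 adjusted p = 6.82e-05). Pnpla3, a relative of Pnpla2, was at 61.7 to 82.3 and at 22.3, 12.7, 0 and 10.4, with a log2 fold change of -2.68 (SE 0.495, DESeq2 adjusted p = 7.36e-07). Aqp7, a channel for glycerol, had a log2 fold change of -0.98 (SE 0.282, DESeq2 adjusted p = 0.00238). For Lpl knockout replicate 3 was the nearest to the wildtype, and for Pnpla3 and Aqp7 it was the lowest library.

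Among 23 lipid droplet proteins 21 were tested, of which 7 were higher and 4 lower (33.3 and 19.1%). Over all genes tested the shares were 18.2 and 15.5%. The median log2 fold change was 0.12. Fitm1, the muscle form of a protein that partitions triglyceride into droplets, was at 986.2 to 1153 normalised counts in the wildtype and at 337.7, 172.3, 155.5 and 152.3 in the knockout, -2.36 on the log2 scale (SE 0.239, DESeq2 adjusted p = 3.05e-21). Its relative Fitm2 fell by 1.38 (SE 0.161, DESeq2 adjusted p = 3.08e-16), from 4159 or more to 2113 or fewer normalised counts. Mettl7a1, found on droplets, fell by 0.7 (SE 0.129, DESeq2 adjusted p = 6.46e-07). In Fitm1, as in Ces1d, knockout replicate 1 was above the other 3.

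Of the droplet genes that rose, Spg20, which encodes spartin, had the largest fold (1.43, SE 0.146, DESeq2 adjusted p = 6.05e-21), from 687.9 to 706.9 normalised counts in the wildtype to 1452 to 2334 in the knockout. Cidea and Cideb, which promote the fusion and growth of droplets, rose by 1.03 (SE 0.225, DESeq2 adjusted p = 4.23e-05) and 1.02 (SE 0.274, DESeq2 adjusted p = 0.00107). Cidea was at 258.5 to 271.6 and at 368.8 to 822.5 normalised counts, with knockout replicate 3 the highest, as in Plin2.

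Among 26 genes of triglyceride synthesis and related acyl transfer 23 were tested, of which 6 were higher and 4 lower (26.1 and 17.4%). Over all genes tested the shares were 18.2 and 15.5%. The median log2 fold change was -0.02. Gpd1, which makes the glycerol backbone from an intermediate of glycolysis, rose by 1.98 (SE 0.224, DESeq2 adjusted p = 2.74e-17), from 905.3 to 1068 normalised counts in the wildtype to 2710, 3276, 6043 and 3345 in the knockout. Soat2 and Soat1, which esterify cholesterol and not glyceride, rose by 3.62 (SE 0.361, DESeq2 adjusted p = 7.88e-22) and 1.68 (SE 0.272, DESeq2 adjusted p = 8.8e-09). For Soat1 the expected counts overlapped between the groups (158 to 243 and 234 to 491), and without the correction for length its fold was 1.08 on the log2 scale. Soat2 was at 6.08 to 12.1 normalised counts in the wildtype and at 75.2 to 155.2 in the knockout.

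Lpin1, the phosphatidate phosphatase that supplies diglyceride to both acyltransferases, had the largest fall of this list. It was at 4248 to 4957 normalised counts in the wildtype and at 2131, 1760, 1032 and 1385 in the knockout, -1.49 on the log2 scale (SE 0.198, DESeq2 adjusted p = 1.29e-12). Acsl1, the main enzyme that activates fatty acids in heart, fell by 0.87 (SE 0.16, DESeq2 adjusted p = 6.1e-07), and Lclat1, an acyltransferase of lysophospholipids, fell by 0.66 (SE 0.167, DESeq2 adjusted p = 0.000505). Lpin1 and Dgat2, which act in sequence, were thus both below the wildtype in all 4 knockout libraries.

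**Figure D4:**
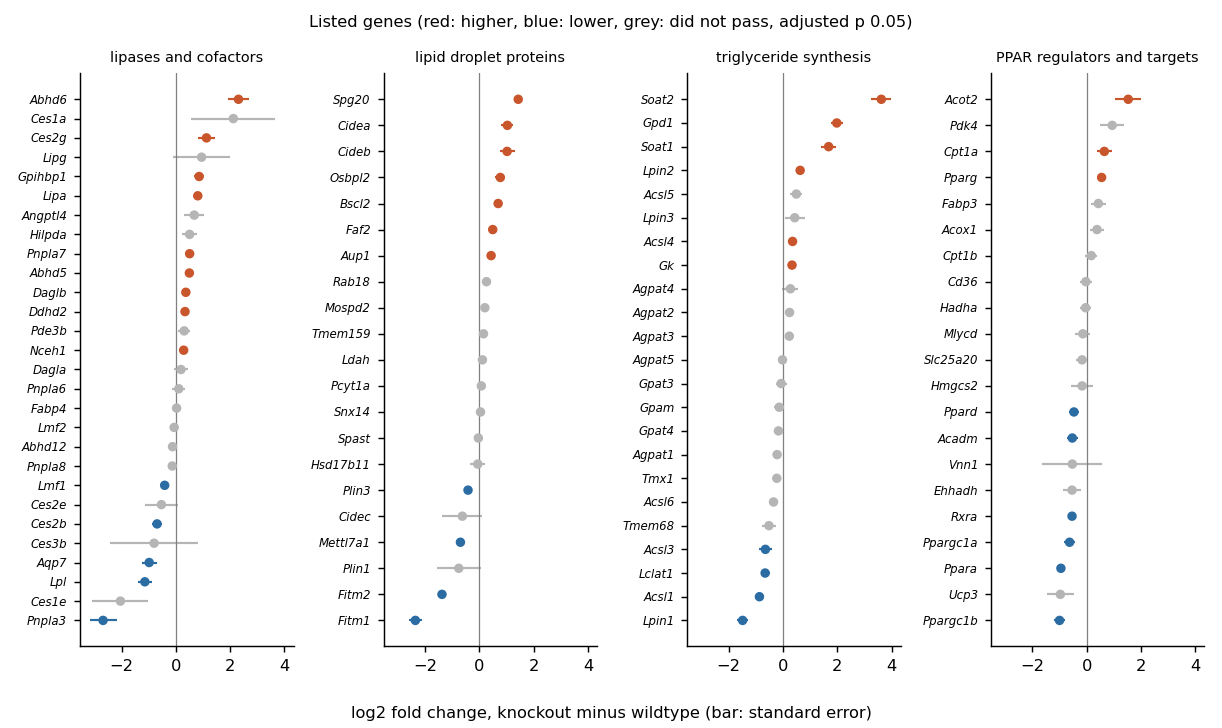
Log2 fold change with standard error of each tested gene of the 3 pathway lists and of the PPAR list, knockout minus wildtype; red genes were higher, blue genes lower and grey genes did not pass the test. Soat2 at 3.62 and Abhd6 at 2.31 lie farthest to the right among the genes that passed, and Pnpla3 at -2.68 and Fitm1 at -2.36 farthest to the left.

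Of 22 PPAR regulators and targets 21 were tested, of which 3 were higher and 6 lower, beside 18.2 and 15.5% of all genes tested. The split was 1 and 8 with total counts (4.55 and 36.4%), beside 9.64 and 29.6% of all genes. It was 7 and 2 with total counts that leave out mitochondrial rRNA (33.3 and 9.52%), beside 38.9 and 5.43%. The split thus moved with that of all genes. Ppara, the receptor that drives fatty acid oxidation in heart, was at 756.7 to 975.6 normalised counts in the wildtype and at 352.7 to 543.8 in the knockout, -0.95 on the log2 scale (SE 0.155, DESeq2 adjusted p = 1.31e-08). Its coactivators Ppargc1b and Ppargc1a fell by 1 (SE 0.192, DESeq2 adjusted p = 2.11e-06) and 0.63 (SE 0.197, DESeq2 adjusted p = 0.00573). Pparg, the receptor of fat cells, rose by 0.55 (SE 0.173, DESeq2 adjusted p = 0.00563).

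Acot2 and Cpt1a rose, with knockout replicate 3 above the rest. Acot2, a mitochondrial thioesterase, was at 965.9 to 1315 normalised counts in the wildtype and at 1854, 1772, 7000 and 2648 in the knockout, 1.53 on the log2 scale (SE 0.486, DESeq2 adjusted p = 0.00703) and 0.86 without knockout replicate 3. Cpt1a, which admits fatty acids to mitochondria, was at 860.4 to 1170 and at 922.7, 1395, 2640 and 1455, with overlapping groups and a log2 fold change of 0.65 (SE 0.265, DESeq2 adjusted p = 0.0429). Cpt1a was not called with edgeR or without knockout replicate 3. Without that library 17 of 22 genes of the list were called, 3 higher and 14 lower, beside 36.6% of all genes tested.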

How the data were processed

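The authors aligned paired reads, counted on the reverse strand, to GENCODE M13 transcripts (mm10, the same assembly as GRCm38) with added mitochondrial sequences, using RSEM 1.2.31 and bowtie2. The deposited expected counts (estimated, not always whole), TPM and effective length (in bases, the authors' average over isoforms) were used. The authors' own comparison of the genotypes, a table of fold changes and p-values, was not used, nor were 8 columns of normalised counts whose names match no sample label.

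The methods of the study name tximport and DESeq2 1.16.1 for this comparison. Here expected counts were rounded and fitted with DESeq2 1.42.0 in R 4.3.3 with a design chosen here: all 8 libraries, genotype as the only term, effective lengths as an offset, no shrinkage, and Benjamini-Hochberg adjustment over all genes at 0.05. Genes without an adjusted p count as not tested. The titles of the samples gave group and replicate. Nothing in them pairs the animals, and p-values measure the spread between these hearts.

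The members, lists and tests were chosen with earlier results of these data known. Named pathway genes were the 3 largest rises and 3 largest falls per list among called genes whose mean reached 10 normalised counts. The genes nearest to a member had a mean of at least 100 and used a pseudocount of 1. Symbols and coordinates came from GENCODE M21 (GRCm38) and matched 50339 of 50563 identifiers. Marker genes of 9 cell types and tissues were summed.

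Results were recomputed with edgeR 4.0.16 (TMM), without the length offset, on genes of at least 10 counts in 4 or more libraries, with nuclear size factors, with total counts (mitochondrial rRNA kept or dropped), with a replicate block, and without each library in turn. Leaving out knockout replicates 1 and 3 together was added after seeing the data. On simulated data of this comparison (18310 genes) DESeq2 recovered 72% of changes of 1 and 98% of changes of 2 on the log2 scale, and 18.3% of its calls were unchanged genes. With edgeR (15700 genes) these were 64%, 97% and 4.73%. Here 100 genes were changed by each amount, a smaller share than was called in the data. The simulated spread between libraries was that estimated by edgeR.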

Additional observations from a re-analysis of the deposited data

Results flagged for a closer look

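Each group of 4 libraries was examined for a library that lay far from the other 3, by Dixon's ratio of the gap to the range, in 68 groups of members and named pathway genes. This found 9 cases. Chance flags about 1 in 20 independent groups, but these groups share the same 8 libraries and their genes were chosen with these values known, so the number of cases is not a test.

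Among the members, Ces1d in knockout replicate 1 was at 151.3 normalised counts, against 23.09 to 29.43 in the other 3 knockout libraries. Mgll in the same library was at 2023, against 1501 to 1578. Plin2 in knockout replicate 3 was at 2494, against 751.5 to 1042, and in wildtype replicate 3 it was at 865.3, against 745.4 to 765.

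Among the pathway genes, Fitm1 in knockout replicate 1 was at 337.7 normalised counts, against 152.3 to 172.3. Acot2 in knockout replicate 3 was at 7000, against 1772 to 2648. Ces2g in knockout replicate 2 was at 90.1, against 56.11 to 59.87. Pparg in knockout replicate 4 was at 196.6, against 228.8 to 232.6. Lpin1 in wildtype replicate 3 was at 4957, against 4248 to 4277. Of the 9 cases, 3 were in knockout replicate 1, 2 in knockout replicate 3, 2 in wildtype replicate 3 and 1 each in knockout replicates 2 and 4.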

How the results depend on the processing

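Ces1d had a log2 fold change of -4.97 and kept its direction under all alternatives run. Leaving out 1 library at a time gave -6.09 (without knockout replicate 1) to -4.7, and leaving out knockout replicates 1 and 3 together gave -6.17. Its order in the wildtype moved from 5 to 4 when normalised counts per effective length replaced TPM. The pathway genes higher in the knockout numbered 22, and 12 with total counts or 43 with total counts without mitochondrial rRNA, with 19 to 21 on leaving out a library. Those lower numbered 13, then 24 and 6, with 12 to 17. The scalings move the median of all genes by construction. The PPAR genes called numbered 9, and 6 to 17 on leaving out a library, with 17 without knockout replicate 3 and 17 without knockout replicates 1 and 3. The cause was not tested. All genes called numbered 6728, and 5549 to 7022 on leaving out a library. Of the 24 named pathway genes, none changed direction. Cpt1a missed the threshold in 9 of 16 alternatives, Pparg with total counts and without knockout replicates 1 and 3, and Aqp7, Mettl7a1, Lclat1 and Ppargc1a with total counts without mitochondrial rRNA.

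Leave-one-out means of the ratios ran from 10.3 to 11.2 (wildtype) and 3.21 to 3.59 (knockout) for Dgat2 to Dgat1, 0.665 to 0.729 and 1.24 to 1.65 for Plin2 to Plin5, 1.8 to 2.2 and 1.4 to 2.63 for Pnpla2 to G0s2, and 0.172 to 0.179 and 0.14 to 0.16 for Lipe to Pnpla2.

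Nothing in the labels pairs the animals by replicate number. Deviations of libraries with the same number correlated at -0.02, -0.08, -0.04 and 0.09, which cannot exclude a pairing. With the replicate number as a block, Ces1d had a log2 fold change of -5.45, and 5525 genes, 19 higher and 12 lower pathway genes and 7 PPAR genes were called. Of the named pathway genes only Cpt1a lost its call under the block.

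For Ces1d in the knockout 3 libraries had 24 to 26 expected counts, and knockout replicate 1, with 138, made up most of the group mean and of the spread. The other members had at least 238 expected counts in every library.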

Other observations

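Genes of fatty acid synthesis were looked at after the data had been seen, as values only. Of 13 such genes, 3 were above the wildtype in all 4 knockout libraries, 3 below it in all 4, and 7 overlapped, beside 16.7% above and 16.4% below over all genes tested. Acaca, the cytosolic acetyl-CoA carboxylase that commits carbon to fatty acids, was at 422.8 to 753.4 normalised counts in the wildtype and at 1853 to 2950 in the knockout. Acacb, its relative at the mitochondrial surface, was at 5413 to 7127 in the wildtype and at 3302 to 4988 in the knockout. The pair therefore differed in opposite directions, as Dgat1 and Dgat2 did. Mlxipl, a glucose-responsive transcription factor of lipid synthesis, was at 321.3 to 369.9 and at 136.3, 83.85, 51.17 and 30.65, with knockout replicate 1 nearest to the wildtype, as in Ces1d. Fasn, which makes palmitate, was at 728.6 to 1014 and at 402.7 to 921.3.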
